A study of Mus musculus with 2 samples.

Results

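Myb binding was examined at the genes of a transcription factor complex of blood stem cells and at the genes of its partners and inhibitors. The set held 10 genes in 3 groups, the complex (Tal1, Lyl1, Lmo2 and Ldb1), the E proteins (Tcf3, Tcf4 and Tcf12) and the Id genes (Id1, Id2 and Id3). A Myb peak was counted at a gene when its summit lay in the gene body or within 50 kb of it in the GENCODE M21 annotation of mm10, and 90 of the 25793 peaks of the list did so. The complex held 50 of these peaks, the E proteins 26 and the Id genes 14.

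The peaks came from ChIP-Seq of Myb in Lin– (lineage-negative) cells from the bone marrow of WT mice, the fraction left after depletion of mature blood cells, with a stated purity above 80%. The study mapped Myb binding to learn which genes that change after loss of p300 are targets of Myb. In the study's methods, WT stands for young adult Ep300 fl/fl mice without Cre that, like the knockout mice, were injected with poly(I:C), an inducer of interferon. The labels of these libraries give neither age nor injection. Chromatin was precipitated with an antibody against Myb (Abcam ab76009) in 1 library and with nonspecific rabbit IgG in 1 control library, which entered only as the background of the peak calls. That antibody is the one named in the study's section on Myb ChIP-Seq, and its list of reagents gives a different Abcam number. With no replicate there was no test, and the values below describe this Myb library. The cells were a mixture of progenitors, and a peak does not say in which of them Myb was bound.

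Tal1 and its relative Lyl1 are basic helix-loop-helix proteins that bind the E-box, a short DNA element, as a pair with an E protein. Lmo2, which has no DNA-binding domain, joins this pair to Ldb1, and Ldb1 binds itself and so can bring distant elements together. GATA factors often join the same complex, which is needed to form blood stem cells. Tcf3, Tcf4 and Tcf12 encode the E proteins, which also pair with each other and act in lymphoid development. Tcf4 here is the E protein and not the Wnt effector that once had the same name. Id proteins pair with E proteins but lack the basic region that touches DNA, and so keep them off the E-box.

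To show the DNA under the strongest peaks, the 101 bases around the summit are printed for the strongest peak of each gene and for any other peak of at least 8-fold enrichment, in mm10, 5′ to 3′ on the + strand. Windows that touch a UTR and the windows at Tcf4 are not shown. Capitals mark matches to short motifs of 5 families, read on both strands. The Myb motif was CAACGG or CAACTG or TAACGG or TAACTG. The GATA motif was AGATAA or AGATAG or TGATAA or TGATAG. The E-box was CAGCTG or CAGATG or CAGGTG, and none of these is also a Myb motif, although CAACTG has the general E-box form CANNTG. The RUNX motif was TGTGGT or TGCGGT and the ETS motif CGGAAG or AGGAAG. Matches of different families could overlap, as the GATA and ETS matches do at Tcf3.
Tal1, intron 1, chr4:115056755-115056855: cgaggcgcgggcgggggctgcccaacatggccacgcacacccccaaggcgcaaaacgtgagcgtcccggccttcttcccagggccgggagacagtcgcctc
Tal1, downstream, chr4:115095781-115095881: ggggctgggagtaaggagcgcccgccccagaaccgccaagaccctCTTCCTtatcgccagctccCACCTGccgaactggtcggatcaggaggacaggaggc
Lyl1, promoter, chr8:84699979-84700079: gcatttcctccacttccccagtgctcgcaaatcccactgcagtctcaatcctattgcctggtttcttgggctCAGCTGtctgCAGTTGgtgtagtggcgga
Lyl1, downstream, chr8:84730907-84731007: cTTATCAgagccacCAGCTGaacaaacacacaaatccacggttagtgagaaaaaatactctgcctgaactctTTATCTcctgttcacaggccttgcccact
Lmo2, upstream, chr2:103934702-103934802: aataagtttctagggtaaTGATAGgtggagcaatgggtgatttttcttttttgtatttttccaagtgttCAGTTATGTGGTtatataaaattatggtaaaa
Ldb1, upstream, chr19:46056288-46056388: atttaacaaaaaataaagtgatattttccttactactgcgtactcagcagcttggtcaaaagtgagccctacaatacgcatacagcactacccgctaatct
Tcf3, promoter, chr10:80433884-80433984: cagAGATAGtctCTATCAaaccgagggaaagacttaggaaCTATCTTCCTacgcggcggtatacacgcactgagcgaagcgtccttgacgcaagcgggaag
Tcf12, upstream, chr9:72133378-72133478: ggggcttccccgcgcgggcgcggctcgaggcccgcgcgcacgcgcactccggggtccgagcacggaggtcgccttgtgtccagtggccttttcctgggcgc
Tcf12, intron 3, chr9:72037204-72037304: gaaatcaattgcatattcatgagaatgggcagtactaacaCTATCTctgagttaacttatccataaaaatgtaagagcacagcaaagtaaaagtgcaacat
Id1, downstream, chr2:152741789-152741889: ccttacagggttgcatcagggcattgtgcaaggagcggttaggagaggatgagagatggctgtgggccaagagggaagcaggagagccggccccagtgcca
Id2, upstream, chr12:25119442-25119542: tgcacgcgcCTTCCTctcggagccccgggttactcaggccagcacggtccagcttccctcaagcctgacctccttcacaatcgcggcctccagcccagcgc
Id3, downstream, chr4:136177983-136178083: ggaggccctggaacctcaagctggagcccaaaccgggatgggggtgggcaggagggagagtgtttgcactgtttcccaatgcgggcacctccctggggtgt
Of these 12 windows, 5 held no match to any of the 5 families, namely those of the strongest peaks at Tal1, Ldb1, Tcf12, Id1 and Id3. The Lmo2 window held a Myb match directly followed by a RUNX match. The Tcf3 window held 3 GATA matches. A match says only that these letters are present.

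All 10 genes had at least 1 Myb summit, against 68.7% of the 21938 protein-coding genes counted by the same rule. A summit within 3 kb of a coding transcript start of their own was found at all 10 genes, against 38.7% of protein-coding genes. All 10 were the nearest coding start of at least 1 summit, against 45.8%. At least 5 summits were found at 9 of the 10 genes, against 28.1%, and the exception was Id2 with 2. The median protein-coding gene had 2 summits, with quartiles of 0 and 5. The set was also chosen with earlier results of these data known, so these shares are description only.

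**Figure D1:**
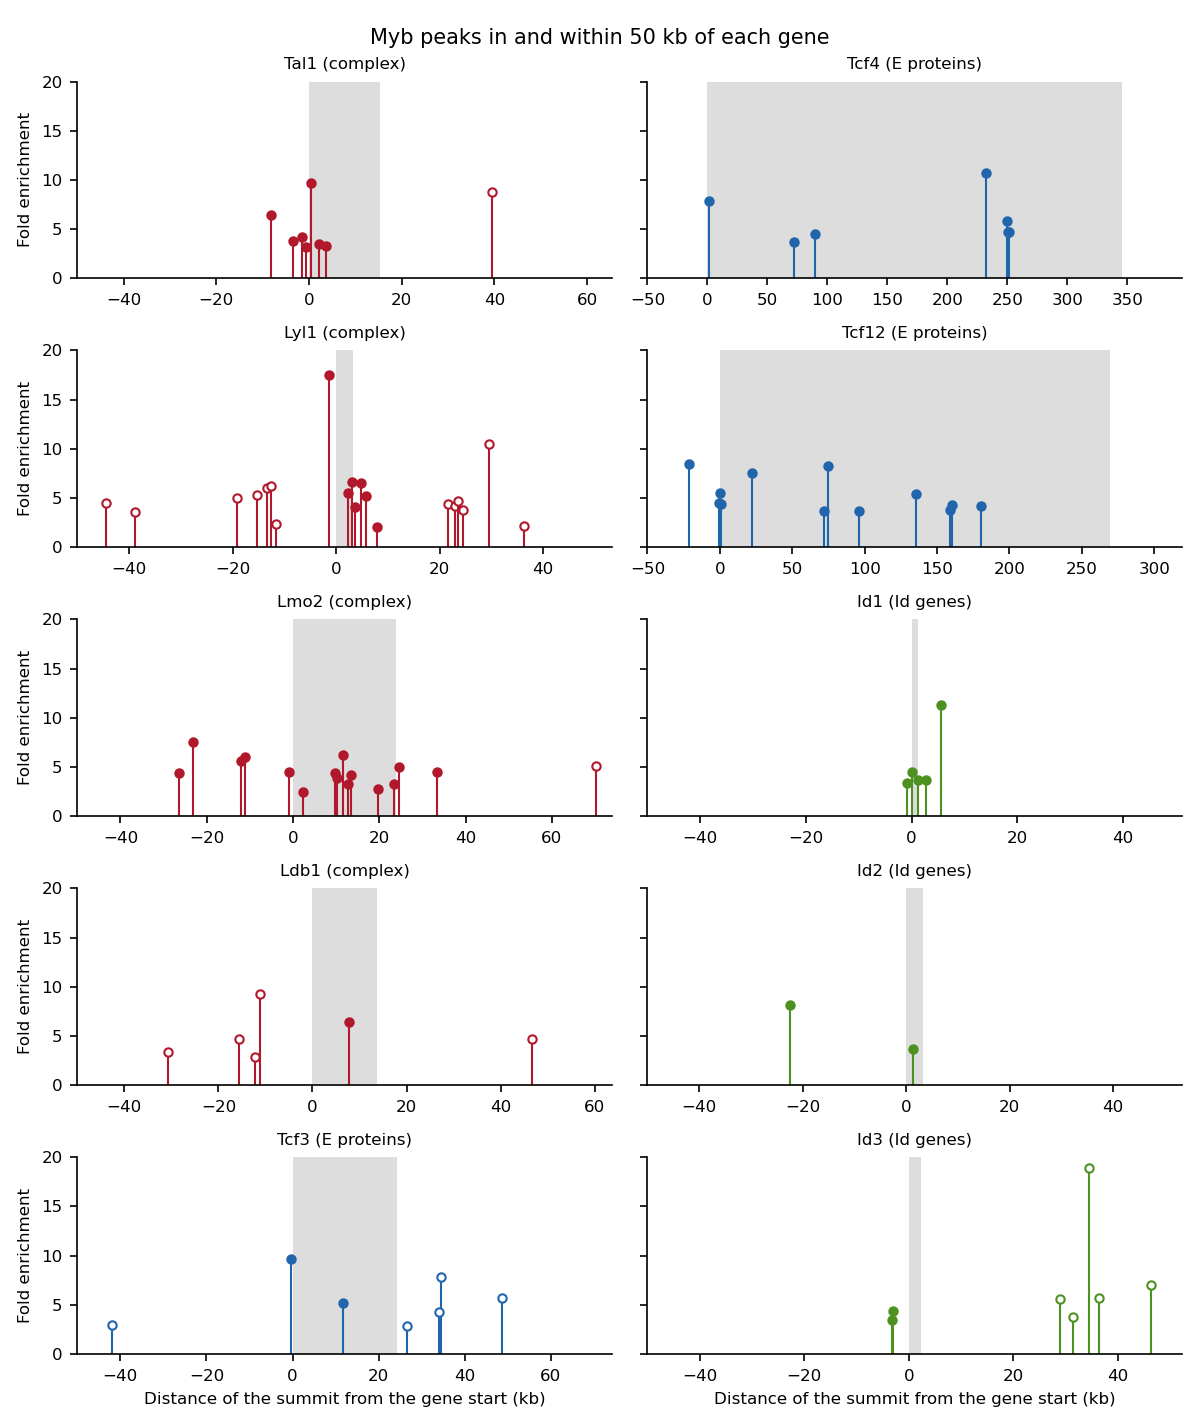
Each panel plots the Myb peaks of 1 gene, with the distance of the summit from the gene start in kb, positive in the direction of transcription, on the x axis and fold enrichment over IgG on the y axis. Gray marks the gene body, filled points are summits whose nearest coding start is the gene itself, and open points are nearer to another gene. The 17.5-fold peak of Lyl1 lies just before the gene, the 19.0-fold peak of Id3 lies 34.5 kb after its start, and the peaks of Tcf4 all lie inside it.

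Tal1 (ENSMUSG00000028717.12, chr4:115056426-115071755, + strand) had 8 peaks, of which 5 lay within 3 kb of a start of its own. The strongest, chr4:115056259-115057482, had its summit in intron 1, 379 bp after the start. Its fold enrichment was 9.68, with 49 reads at the summit (exact Poisson 95% interval, 36.3 to 64.8). All intervals on reads and shares given here cover counting error only. A second strong peak, chr4:115095623-115096629, lay 39.4 kb after the start, beyond the gene, at 8.82-fold with 56 reads (42.3 to 72.7). Pdzk1ip1, at 7108 bp, was the nearest coding start to it. The third was 8.19 kb upstream at 6.43-fold with 25 reads. The other 5 peaks were small, from 3.15-fold to 4.18-fold, and 1 of them had a q-value above 0.05. The promoter peak had the higher fold enrichment and the downstream peak more reads, with overlapping intervals, so the 2 could not be ranked.

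Lyl1 (ENSMUSG00000034041.4, chr8:84701457-84704715, + strand) had 20 peaks, more than 99.5% of protein-coding genes. Its strongest peak, chr8:84698985-84702601, was 3617 bp wide and spanned the start, with the summit 1428 bp upstream. The fold enrichment was 17.5, with 88 reads (70.6 to 108), and it ranked 99 in the whole list. The next, chr8:84729855-84731519, lay 29.5 kb after the start at 10.4-fold with 53 reads (39.7 to 69.3). It was nearer to the start of G430095P16Rik than to that of Lyl1, and it lay within Nfix, a gene that also spans Lyl1 itself. The third, in exon 4 of Lyl1, was 6.66-fold with 42 reads. Lyl1 was the nearest coding start of 7 of the 20 summits. Among these 7 was the summit of the strongest peak, although a start of Trmt1 among all transcripts lay nearer, at 848 bp. Also among these 7, the summits 3.60 to 7.86 kb after the start were nearer to a start of Nfix, at 414 to 2659 bp. The 13 outside these 7 were nearer to Ier2, Nacc1, Trmt1 or G430095P16Rik, so the count at Lyl1 holds summits at the promoters of its neighbors. The widest peak of the set, 7192 bp, lay at Ier2 at 3.59-fold with 50 reads, over the highest background among the 90 peaks. At Lyl1, 3 peaks had a q-value above 0.05.

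Lmo2 (ENSMUSG00000032698.15, chr2:103957986-103981878, + strand) had 16 peaks, more than 98.3% of protein-coding genes, and was the nearest coding start of 15 of them. Its peaks were of moderate strength, and none reached 8-fold. The strongest, chr2:103934199-103935313, lay 23.2 kb upstream at 7.55-fold with 29 reads (19.4 to 41.6). This was the summit with the adjoining Myb and RUNX matches, and a GATA match lay in the same window. A peak 129 bp from an internal start of Lmo2, in the annotated transcripts that begin there, had 6.25-fold enrichment and 29 reads. A peak 11.0 kb upstream had 6.06-fold enrichment with 25 reads, and its window held a Myb motif and an E-box. At Lmo2, 7 summits lay within 3 kb of a start of its own, and 2 peaks had a q-value above 0.05.

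Ldb1 (ENSMUSG00000025223.15, chr19:46031570-46045214, – strand) had 6 peaks, and was the nearest coding start of 1. That peak lay in intron 1, 2024 bp from a start of Ldb1, at 6.38-fold with 28 reads (18.6 to 40.5), and its window held an E-box. The strongest peak in the window of Ldb1, chr19:46056022-46056850, was 9.30-fold with 36 reads (25.2 to 49.8), but its summit lay 201 bp from the start of Pprc1. The third, at 4.72-fold with 24 reads, was also nearest to Pprc1. Of the 4 complex genes, Ldb1 thus had the fewest summits nearest to its own start.

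Among the E proteins, Tcf3 (ENSMUSG00000020167.14, chr10:80409514-80433647, – strand) had 7 peaks, 2 of them nearest to its own starts. The strongest, chr10:80433714-80434547, lay 287 bp upstream of the start, with 9.68-fold enrichment and 49 reads (36.3 to 64.8). These are the values of the Tal1 promoter peak, and 8 rows of the list, these 2 included, shared them, since both the reads and the background were small numbers. The other peak of its own was in intron 3, 123 bp from an internal start, at 5.21-fold with 19 reads. A 7.80-fold peak with 29 reads lay 260 bp from the start of Mbd3, and a 5.67-fold peak with 19 reads was nearest to Mex3d.

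Tcf4 (ENSMUSG00000053477.17, chr18:69343356-69689079, + strand) had 7 peaks and Tcf12 (ENSMUSG00000032228.16, chr9:71842688-72111871, – strand) had 12, and each was the nearest coding start of all of its own. No other protein-coding gene lay in their windows. All 7 peaks of Tcf4 lay inside the gene. The strongest, chr18:69575196-69575922, was in intron 8, 232 kb after the start, at 10.7-fold with 34 reads (23.5 to 47.5). A peak in intron 1, 546 bp from a start of its own, was 7.90-fold with 24 reads. A cluster of 3 peaks about an internal start 250 kb into the gene was led by one of 5.83-fold with 29 reads. The strongest peak of Tcf12, chr9:72132918-72133616, lay 21.6 kb upstream at 8.42-fold with 31 reads (21.1 to 44.0). It was followed by 2 peaks in intron 3, at 8.22-fold with 25 reads and 7.51-fold with 28 reads. The 3 promoter peaks of Tcf12 reached 5.56-fold with 20 reads, whose 95% interval overlaps that of the upstream peak, and these were not ranked by reads.

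Among the Id genes, the strongest peak was outside the gene body in each case. Id1 (ENSMUSG00000042745.9, chr2:152736251-152737410, + strand) had 5 peaks, all nearest to its own start among coding starts although 4 other coding genes lay in the window. The strongest, chr2:152741242-152742243, lay 5.59 kb after the start at 11.3-fold with 41 reads (29.4 to 55.6). The peak at its start was 4.45-fold with 18 reads, and the others were from 3.41-fold to 3.73-fold. Id2 (ENSMUSG00000020644.9, chr12:25093799-25097140, – strand) had 2 peaks. One lay 22.4 kb upstream, chr12:25119167-25119847, at 8.14-fold with 41 reads (29.4 to 55.6). The other was in exon 2 at 3.71-fold with 18 reads, a number that is only the closest of more than 1 match to the deposited values.

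Id3 (ENSMUSG00000007872.3, chr4:136143497-136145755, + strand) had 7 peaks and the highest fold enrichment of the set. That peak, chr4:136177113-136179277, was 19.0-fold with 80 reads (63.4 to 99.6) and ranked 65 in the whole list. It lay 34.5 kb after the start of Id3 but inside E2f2, 5639 bp from the start of that cell-cycle gene, and E2f2 was its nearest coding start. The next peaks, 7.0-fold and 5.72-fold with 25 reads each, also lay in E2f2. The 2 summits nearest to Id3 were close together upstream of it, and the stronger, 2977 bp from the start, was 4.43-fold with 15 reads.

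**Figure D2:**
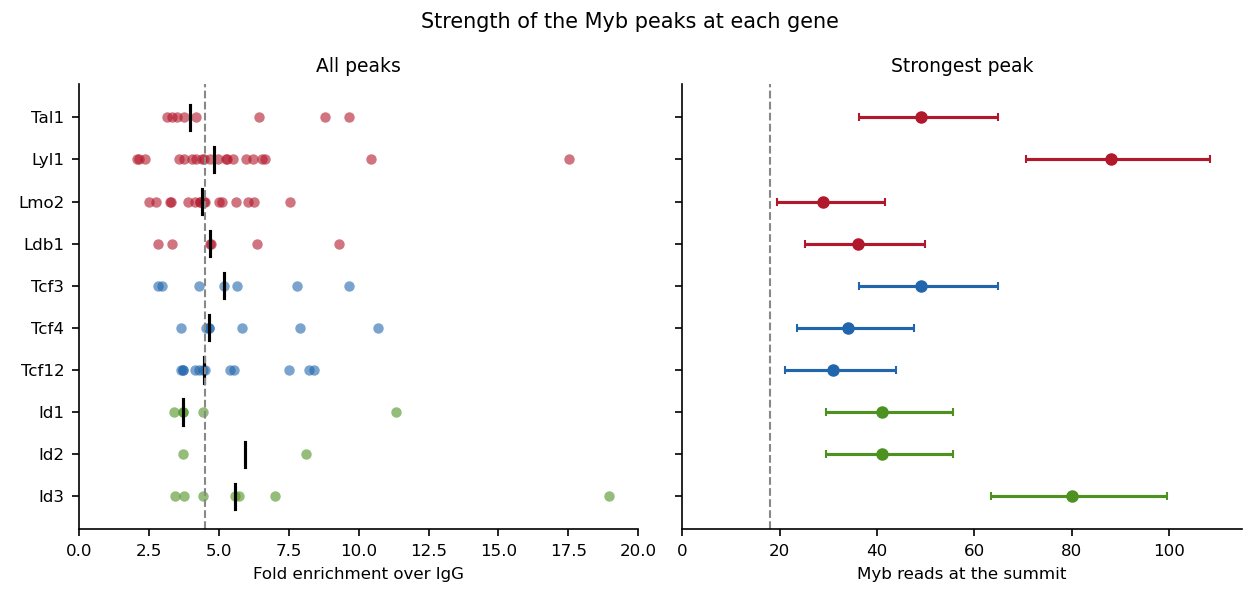
The left panel plots the fold enrichment over IgG of every peak of each gene, with a black bar at the gene's median and a dashed line at 4.51, the median of the whole list. The right panel plots the Myb reads at the summit of the strongest peak with exact Poisson 95% intervals, and the dashed line marks 18 reads, the median of the list. Most peaks of each gene lie near the list's median, with 1 peak far above the rest at Lyl1, Id1 and Id3.

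The strongest peaks of Lyl1 and Id3 had overlapping intervals on their reads. The Lyl1 interval lay above those of the strongest peaks of the other 8 genes, whereas the Id3 interval overlapped those of Tal1 and Tcf3. Overlap of intervals was not a test, and peaks whose intervals overlap may still differ in reads. The intervals also leave out error in the IgG background, on which fold enrichment depends. The downstream peak of Tal1, which could not be ranked against its promoter peak, had an interval that overlapped both. The gene medians of fold enrichment ran from 3.73 at Id1 to 5.92 at Id2, which had only 2 peaks. In the whole list the quartiles were 3.73 and 5.95.

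The groups were then compared. Peaks per 100 kb of window numbered 11.0 in the complex, 2.77 in the E proteins and 4.56 in the Id genes, and the median protein-coding gene had 1.52. The complex remained densest without Lyl1, whose window is crowded with genes, at 8.50 per 100 kb. The windows of the complex held 14 other protein-coding genes, those of the E proteins 4 and those of the Id genes 6. By density, Lyl1 exceeded 99.8% of protein-coding genes, Lmo2 98.6%, Tal1 91.0%, Id3 90.7%, Tcf3 86.2%, Ldb1 84.5% and Id1 83.2%. Tcf12 exceeded 70.8%, Id2 57.7% and Tcf4 50.7%, so the 12 and 7 peaks of the long genes Tcf12 and Tcf4 were nearer to the middle of all genes once length was counted. When only summits nearest to the gene itself by coding starts were taken, Tcf4, Tcf12, Id1 and Id2 kept all of their peaks. For Tcf4 and Tcf12 this had to be so within the gene and 50 kb, as no other coding gene lay there. Lmo2 and Tal1 kept most, 15 of 16 and 7 of 8. Ldb1, Lyl1, Tcf3 and Id3 did not, with 1 of 6, 7 of 20, 2 of 7 and 2 of 7. Among the starts of all genes, the strongest peaks of Tcf12, Id1 and Id2 were nearer to Gm7863, Gm14162 and Gm17746, at 4841, 3868 and 9682 bp.

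**Figure D3:**
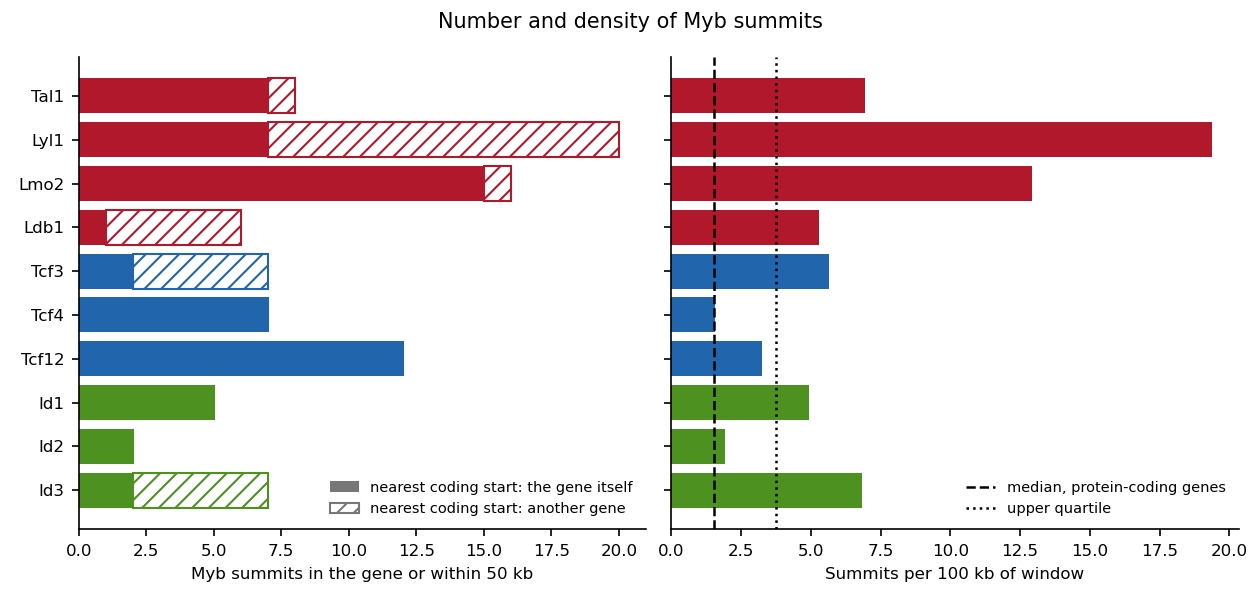
Bars give the number of Myb summits in or within 50 kb of each gene (left) and the same number per 100 kb of window (right), with the complex in red, the E proteins in blue and the Id genes in green. Hatched parts are summits nearer to the coding start of another gene, and lines mark the median (1.52) and upper quartile (3.77) of protein-coding genes. Lyl1 and Lmo2 stand highest in both panels, and Tcf4 lies at the median of density.

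Over all peaks, the group medians of strength lay close together. The median fold enrichment was 4.49 in the complex, 4.67 in the E proteins and 4.44 in the Id genes, with median reads of 21, 18.5 and 18. When only peaks whose −log10 q-value reached 5 were kept, the medians were 6.14, 7.66 and 7.57, lowest in the complex. The upper quartile of the list was exceeded by 25 of the 90 peaks (27.8%), against 24.9% of all peaks. A q-value of at most 0.05 was found for 84 of the 90 (93.3%), against 92.8%, and the 6 others were all in the complex. A −log10 q-value of at least 5 was found for 42 (46.7%), against 43.1%. Strength at these genes over all peaks was thus near that of the list, while 9 of the 10 had more summits than the median gene. The share of summits in the gene body differed more between the groups, but so did the part of the windows that gene bodies took up. Summits in the gene body made up 28.0% of the complex peaks (16.2% to 42.5%), 69.2% of the E protein peaks (48.2% to 85.7%) and 21.4% of the Id peaks (4.66% to 50.8%). The gene bodies took up 12.3%, 68.1% and 2.20% of the windows, so the E protein share was near that of its windows. Summits within 3 kb of the gene's own starts numbered 15 of 50, 10 of 26 and 6 of 14. These 31 promoter peaks had a median of 4.45-fold and the other 59 a median of 4.72-fold.

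A limit of 100 kb in place of 50 kb gave 119 peaks, with 24 at the Id genes. A 10.7-fold peak with 56 reads lay 52.1 kb from Id1, nearest to Cox4i2, and a 6.11-fold peak with 24 reads lay 51.3 kb from Lmo2 and was nearest to it. A 6.60-fold peak with 33 reads lay 80.7 kb from Id2 and was also nearest to it. The next summit beyond Tcf4 was 333 kb away. Just inside the limit, a 5.12-fold peak with 16 reads lay 46.3 kb from Lmo2, nearest to 4931422A03Rik, and a 4.47-fold peak with 18 reads lay 44.4 kb from Lyl1.

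Motifs were counted within 50 bp of each summit. The E-box, the element bound by the complex itself, was found at 19 of the 90 summits (21.1%), against 20.1% of all summits of the list. The GATA motif was found at 18 (20.0%), against 20.1%. The Myb motif was found at 12 (13.3%), against 16.7%, the RUNX motif at 7 (7.78%), against 12.2%, and the ETS motif at 11 (12.2%), against 20.4%. Among the 42 peaks whose −log10 q-value reached 5, the RUNX share was 14.3%, against 13.6% of such peaks in the list. There the ETS share was 19.0%, against 21.6%, and the Myb share 16.7%, against 19.6%. These shares rest on only 6, 8 and 7 of the 42 peaks for RUNX, ETS and Myb, and all lay near the list. Their differences from the list were not tested. None of the 5 was present at 44 summits (48.9%, 38.2% to 59.7%), against 38.0%. This interval treats the summits as independent although those of 1 gene share a locus, so no excess is claimed. A composite element of CTG and GATAA with 7 or 8 bases between them, the spacing known from sites of the Tal1 complex with GATA factors, was present at 1 summit. This was the 10.4-fold peak 29.5 kb after the start of Lyl1, and the share in the list was 1.22%.

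By group, the Myb motif was under 5 of the 50 complex summits (3.33% to 21.8%), 7 of the 26 E protein summits (26.9%, 11.6% to 47.8%) and 0 of the 14 Id summits, which allows a share of up to 23.2%. The E-box was under 13 of the complex summits (26.0%, 14.6% to 40.3%), 4 of the E protein summits (15.4%, 4.36% to 34.9%) and 2 of the Id summits (14.3%, 1.78% to 42.8%). The GATA motif was under 14.0%, 30.8% and 21.4% of the summits. The intervals of the groups overlapped for each of the 5 families. Differences between groups were not tested, and none in motif content is claimed at these numbers. The interval for ETS in the complex (4 of 50, 2.22% to 19.2%) was the only 1 of the 15 that missed the share in the list. Of those 50 peaks, 20 lay at Lyl1 and 16 at Lmo2, whereas the interval treats all as independent. With 15 intervals read as well, no lack of ETS in the complex is claimed. Of the complex genes, Lmo2 had 3 summits with a Myb motif, Lyl1 and Ldb1 1 each and Tal1 none. Of the E proteins, Tcf4 had 3, and Tcf3 and Tcf12 2 each.

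**Figure D4:**
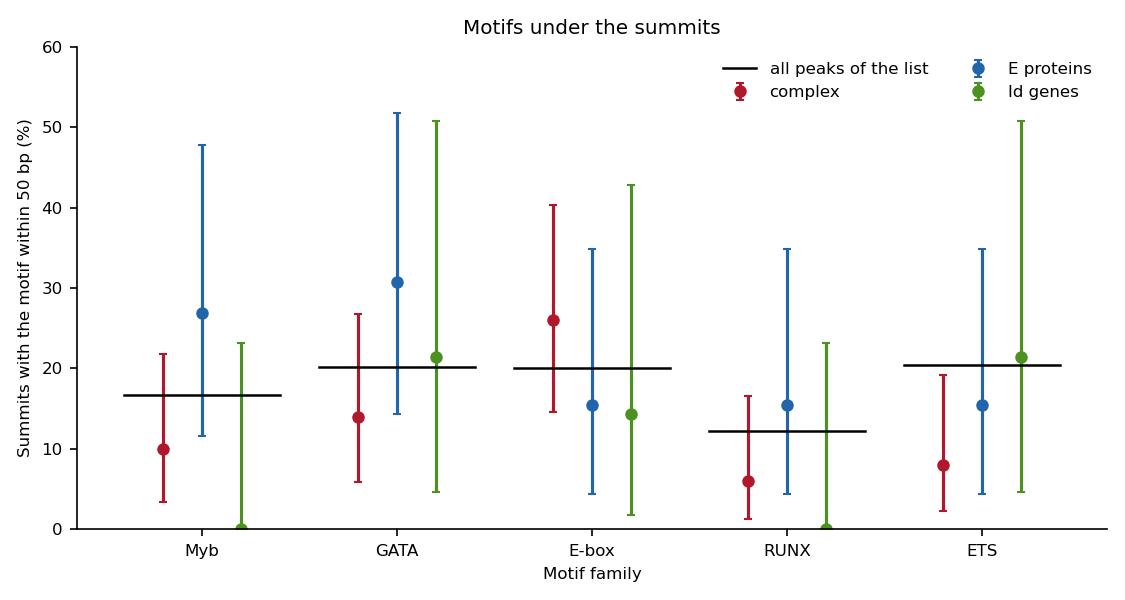
Points give the percent of summits with each motif within 50 bp for the complex (50 peaks), the E proteins (26) and the Id genes (14), with exact binomial 95% intervals, and black lines give the percent of all 25793 peaks. The intervals of the 3 groups overlap in every family, and that of the complex lies below the list's line for ETS alone. The intervals treat peaks of the same gene as independent.

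Other genes of the same pathway were read by the same rule. They were relatives of the set (Tal2, Lmo1, Lmo3, Lmo4, Ldb2 and Id4) and partners of the complex (Ssbp2, Ssbp3, Ssbp4, Cbfa2t3, Cbfa2t2, Gata1, Gata2, Rcor1 and Kdm1a). Of these 15 genes, 12 had a Myb summit, against 68.7% of protein-coding genes, and 10 had one within 3 kb of a start of their own, against 38.7%. The list was chosen with earlier results of these data known, so these shares are description only. The strongest peaks at Ssbp4 and Kdm1a were nearest to Lrrc25 and Luzp1. Cbfa2t3, a corepressor of the Tal1 complex, had 21 peaks, with the strongest 21 kb upstream at 21.3-fold with 82 reads (65.2 to 102). Ssbp2, which binds and stabilizes Ldb1, had 15 peaks, with the strongest 81.0 kb into the gene at 21.3-fold with 67 reads (51.9 to 85.1). Gata2 had 14 peaks, with the strongest 27.7 kb upstream at 15.6-fold with 82 reads (65.2 to 102). Gata1 had 3 peaks, up to 7.90-fold, and Rcor1, a subunit of a histone demethylase complex, had 7, up to 10.6-fold. Among the relatives, Lmo4 had 4 small peaks, up to 4.78-fold. Lmo1 had 2, the stronger of them, at 16.7-fold, nearest to Ric3, and Tal2 had 2, neither nearest to it. No peak was listed for Lmo3, Ldb2 or Id4.

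A Myb peak is no measure of expression, so the cell type could not be checked from marker genes.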

How the data were processed

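Peaks were analyzed from the deposited Myb peak list (mm10). The authors trimmed reads with cutadapt 1.15, aligned them with BWA 0.7.13, removed duplicates with Picard and called peaks with MACS2 2.1.1.20160309 against IgG, keeping calls that overlapped between pseudo-replicates, with a stated q-value under 0.05. The deposited fold enrichment was read as a ratio of the scaled Myb pileup to the local IgG background, after a pseudocount (a small constant) is added to both. It is therefore lower than the plain ratio of the 2 values. Both the p-value and the q-value were deposited as −log10 values. The score column, as deposited, is a rounded multiple of the −log10 p-value and was not used.

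Depth is not in the list, so the reads at each summit were recovered from fold enrichment and p-value. A pileup scale of 0.769 gave whole reads in 100% of rows (tolerance 0.003 on the −log10 p-value), and 2.60% of rows had more than 1 match, 3 of them at the genes reported (Tcf12, Id2 and Id3). The smallest background common in the list was 1.46 reads.

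Gene bodies and starts were those of GENCODE M21. The set of genes, the other lists and the motifs were chosen with earlier results of these data known. For each gene the 3 peaks of highest fold enrichment and the strongest peak within 3 kb of its own starts were named, and the others were given by range. Shares have exact (Clopper-Pearson) 95% intervals, which treat peaks as independent although those of the same gene share a locus. Steps were tested on simulated data and run in Python 3.11.15 with SciPy 1.17.1 and pandas 2.3.3. Alternatives covered the q-value limit, the window, the measure of strength and the motif. The IgG library was not analyzed on its own here. Peak counts at marker genes of cell types are not reported here.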

Additional observations from a re-analysis of the deposited data

How the results depend on the processing

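All 10 genes kept at least 1 peak under the alternatives of q-value, window and nearest start that were run. A q-value of at most 0.05 changed the share of protein-coding genes with a summit to 67.8%. Raising the limit to a −log10 q-value of 5 kept 42 peaks, with 24 in the complex, 12 in the E proteins and 6 in the Id genes. The median fold enrichment there was 6.14 in the complex, 7.66 in the E proteins and 7.57 in the Id genes, and 55.0% of protein-coding genes had a summit, as weaker peaks were removed from all. A window of 3 kb left 49 peaks, with 22 in the complex and 6 in the Id genes, and 46.4% of protein-coding genes. A window of 10 kb left 56, with 26 and 8, and 52.6% of genes. A window of 100 kb gave 119 peaks, 24 of them at the Id genes, and 76.6% of protein-coding genes then had a summit. Counting only peaks nearest to the gene left 30 in the complex and 9 in the Id genes. Over the 10 genes, 60 summits were nearest to the gene itself by coding starts and 43 by the starts of all genes. Median strength as the −log10 q-value was 4.87 in the complex, 4.78 in the E proteins and 3.74 in the Id genes, and as reads 21, 18.5 and 18. Within 25 bp of the summit, GATA matches were at 10% (list 10.8%), E-boxes at 11.1% (10.5%), ETS matches at 3.33% (10.4%) and the composite at 0 of the 90 peaks (0.574%). Within 100 bp the shares were 22.2% for Myb (list 30.0%), 32.2% for GATA (34.8%), 36.7% for the E-box (35.0%), 16.7% for RUNX (23.5%) and 32.2% for ETS (37.1%). In peaks whose −log10 q-value reached 5, Myb was at 16.7% (19.6%), GATA at 21.4% (20.5%) and the E-box at 21.4% (21.3%). The looser Myb motif AACNG was at 52.2% of summits, against 54.3% of the list. Alternatives chosen after seeing the data left out Lyl1, which left 30 peaks in the complex, or read the whole peak, with 61.1% for Myb (list 58.6%), 64.4% for GATA (64.8%), 76.7% for the E-box (67.9%), 51.1% for RUNX (50.8%), 65.6% for ETS (68.6%) and 2.22% for the composite (6.46%). Myb and RUNX thus passed from below the share of the list to just above it, but a wider peak holds more sequence. The median width was 666.5 bp at these genes and 577 bp in the list. Per kb of peak, Myb (1.26 sites, list 1.48) and RUNX (0.928, list 1.13) stayed below the list. Of all the alternative values, 48 moved by less than their counting error or count limit and 42 by more. The 42 include median strengths given in another unit, and motif shares read over wider windows or with a looser motif, which must rise. The tally is therefore no measure of how stable the results are. No paired analysis was possible because there was 1 library per group, and for the same reason no replicate could be left out. The median peak of the list rested on 18 reads, which limits the ranking of single peaks.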

Other observations

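Read over whole peaks, the E-box was the most frequent of the 5 motif families at the 10 genes, with 2.27 sites per kb, against 2.06 in the list. It was 2.19 in the complex, 1.84 in the E proteins and 3.41 in the Id genes, which had 34 sites in 9.98 kb of peaks. Of these sites, 11 and 7 lay in 2 peaks within E2f2 in the window of Id3. The Myb motif had 1.26 sites per kb, against 1.48, the GATA motif 1.88, against 2.05, RUNX 0.928, against 1.13, and ETS 1.82, against 2.17. In the E proteins, the GATA motif had 2.64 sites per kb and the ETS motif 1.09. Of the 46 GATA sites there, 11 lay in the 8.22-fold peak in intron 3 of Tcf12. The share of E protein peaks with a GATA site was 61.5%, against 64.8% of the list. Within 50 bp of the summit, at least 3 of the families were present at 3 of the 90 summits (3.33%), against 4.71% of the list, and these were peaks at Lmo2, Tcf3 and Tcf12. The shares rest on few peaks and were not tested.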
